A study of Arabidopsis thaliana with 12 samples.

Results

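The genes described here are the chaperones that fold proteins inside the endoplasmic reticulum (ER) around the HSP70 BiP, and they were taken by locus, as 10 of the 33557 genes in the expression table. They comprise the BiP genes BIP1, BIP2 and BIP3, the ER-resident HSP90 SHEPHERD (SHD, the plant GRP94), an HSP110-like member of the HSP70 superfamily, the J-domain proteins ERDJ3A, ERDJ3B, ERDJ2A and P58IPK, and SDF2. The study asked how the ER stress sensor IRE1 acts in plants that lack BLISTER (BLI), and mRNA was sequenced from Arabidopsis seedlings of the Columbia strain, labelled as 12 days old. The 4 genotypes had 3 libraries each: *bli ire1a* (*bli-1*-/- with *ire1a*-/-), *bli ire1b* (*bli-1*-/- with *ire1b*-/-), *bli* (*bli-1*-/-) and wild type (WT). No stress agent is named for any group. Both double mutants carry the *bli-1* mutation, each mutated gene is represented by 1 insertion allele, and single mutants of *ire1a* or *ire1b* were not analysed here, so the effect of either IRE1 gene is measured only in plants that lack BLI. The labels number the 3 libraries of a genotype and the study's methods call them biological replicates.

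BiP binds unfolded segments of proteins that enter the ER and releases them in cycles of ATP hydrolysis. J-domain proteins bring clients to BiP and start the hydrolysis, exchange factors reload BiP with ATP, and GRP94 takes over part of the clients at a later step. When unfolded proteins accumulate, the unfolded protein response (UPR) raises the transcription of these genes. In plants it runs through IRE1, which splices the mRNA of the transcription factor bZIP60, and through the membrane-tethered factors bZIP28 and bZIP17. Such factors bind promoter elements named ERSE and UPRE.

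Expression is given as FPKM, fragments per kilobase of transcript scaled to the mapped fragments of the library. FPKM is scaled by transcript length, so levels may be set side by side between genes. Differences were fitted with limma on log2(FPKM + 0.1) over the 20645 genes with a mean of at least 0.5 FPKM, all 10 chaperone genes among them. The p-values were adjusted after Benjamini-Hochberg over all genes tested, and 0.05 was the limit for a call. Each log2 difference is followed by its standard error (SE). An exact two-sided permutation test of 3 against 3 libraries cannot go below p = 0.1 and can call no single gene, so all calls rest on limma.

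The mRNA of each targeted gene was lower in its mutants than in WT, without falling to 0. *IRE1A* had 4.45 to 5.68 FPKM in *bli ire1a*, against 22.9 to 24.2 FPKM in *bli* and a mean of 15.5 ± 0.475 FPKM in WT (SD, n = 3), and it was itself called higher in *bli* than in WT (log2 difference 0.59, limma adjusted p = 0.000565). *IRE1B* had 4.56 to 5.34 FPKM in *bli ire1b*, against 10.7 to 11.4 FPKM in *bli* and 9.21 to 10.5 FPKM in WT. *BLI* had 8.94 to 13.4 FPKM in the 9 mutant libraries and 16.8 to 17.7 FPKM in WT. The part of the transcript left thus differed between the mutated genes, and FPKM do not show whether it is functional. Read totals were not used here. From the steps of its low values, 1 fragment was worth between 0.555 and 1.07 times what it was worth in WT replicate 1. Libraries of a genotype correlated with one another at 0.944 to 0.960. The summed FPKM of 5 leaf markers, photosynthesis genes, was 53696 to 60474 in *bli ire1a*, 47153 to 50865 in *bli ire1b*, 47182 to 51655 in *bli* and 69685 to 74826 in WT, and none of the 5 was at 0. All 5 were called lower in *bli* and in *bli ire1b* against WT, and 4 of 5 in *bli ire1a*. Of all genes, 17.0% were called lower in *bli*, 20.1% in *bli ire1b* and 7.87% in *bli ire1a*. The sum of 6 root markers was 1236 to 1442 in *bli ire1a*, 1058 to 1404 in *bli ire1b*, 1346 to 1565 in *bli* and 1457 to 1686 in WT. Of these 6, limma called 5 lower in *bli ire1b* than in WT, 1 lower in *bli* and 0 lower in *bli ire1a*. The counts of 1 and 0 are near the shares of all genes called lower. PYK10 made up most of the sum (mean 1211 FPKM in *bli ire1b*, against 1494 FPKM in WT). Whole seedlings were sequenced, in which fewer cells of a type and less RNA per cell cannot be told apart. The part of these shifts in the results below was not tested.

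The sequences in front of the genes show which members carry the letters of UPR elements. In the 300 bases upstream of the annotated gene start (RefSeq annotation of the TAIR10.1 assembly), both strands were searched for ERSE-I (CCAAT followed, 10 bases on, by CACG), ERSE-II (ATTGG followed, 1 base on, by CCACG) and the UPRE core (TGACGTG). Of the 10 genes, 4 held a match: BIP3, SHD, P58IPK and the HSP110-like gene. Each of these had ERSE-I, which occurs in 0.747% of the same windows of 27443 genes. Any of the motifs occurs in 3.79%, the UPRE core in 3.16% and ERSE-II in 0.0656%. The 200 bases next to the gene start are shown for the 4 genes, 5′ to 3′ on the coding strand, with matches in capitals. BIP3 (chr1:2931851-2932050, minus strand) and P58IPK (chr5:749901-750100, plus strand) have 2 copies of ERSE-I each. SHD (chr4:12556059-12556258, minus strand) and the HSP110-like gene (chr4:9376499-9376698, plus strand) have 1 ERSE-I and 1 UPRE core each.
BIP3: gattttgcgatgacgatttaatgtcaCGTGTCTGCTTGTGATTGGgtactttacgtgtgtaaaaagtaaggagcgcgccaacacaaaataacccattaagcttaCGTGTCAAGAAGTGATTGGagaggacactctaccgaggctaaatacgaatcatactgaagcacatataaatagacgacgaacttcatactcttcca
SHD: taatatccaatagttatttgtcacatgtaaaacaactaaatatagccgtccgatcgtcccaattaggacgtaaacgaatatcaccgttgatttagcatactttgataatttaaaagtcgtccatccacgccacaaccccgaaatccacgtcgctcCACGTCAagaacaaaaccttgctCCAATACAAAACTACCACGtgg
P58IPK: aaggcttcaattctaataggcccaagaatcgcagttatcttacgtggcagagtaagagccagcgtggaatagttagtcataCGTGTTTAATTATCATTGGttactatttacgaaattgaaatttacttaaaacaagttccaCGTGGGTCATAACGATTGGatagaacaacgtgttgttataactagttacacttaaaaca
HSP110-like: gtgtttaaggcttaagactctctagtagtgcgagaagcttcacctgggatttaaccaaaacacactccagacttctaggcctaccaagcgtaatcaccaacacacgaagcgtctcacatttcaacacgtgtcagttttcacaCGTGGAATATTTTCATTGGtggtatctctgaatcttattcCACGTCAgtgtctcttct

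BIP1 and BIP2 had no match in that window. A search of the 500 bases before the start codon, added after the first window had been seen, found an ERSE-II that overlaps a UPRE core in both genes. The same 22 bases stand at chr5:10543425-10543446 (minus strand) in BIP1 and at chr5:16810656-16810677 (minus strand) in BIP2, inside the annotated transcribed region. The capitals mark the 14 matched bases.
BIP1: gataATTGGTCCACGTCAtctc
BIP2: gataATTGGTCCACGTCAtctc
Over all genes 0.0984% held ERSE-II and 5.21% any of the motifs in this wider window. ERDJ3B held 1 ERSE-I there, while ERDJ3A, ERDJ2A and SDF2 had no match in either window. The 200 bases before ERDJ3A lie within the antisense gene AT3G08960. A match is a description of letters and not a measured site. In *bli* against WT, genes with a match in either window had log2 differences of 6.93 (BIP3), 1.36 (HSP110-like), 1.15 (BIP2) and 1.10 (BIP1). Those of SHD, ERDJ3B and P58IPK, which also held a match, were 0.88, 0.57 and 0.46. Without a match, the log2 difference was 4.94 for ERDJ3A, 0.46 for SDF2 and 0.26 for ERDJ2A. Whether a match goes with the response was not tested.

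BIP1 and BIP2 are close copies. Their coding sequences were identical at 96.6% of 2006 aligned bases, their proteins at 96.9% of 668 aligned residues, and the longest shared stretch of transcript was 323 bases. Of all 50-base windows, 22.9% of those of the BIP1 transcript occurred in BIP2 and 24.8% of those of BIP2 occurred in BIP1, so fragments can be shared and the separate values of the pair are uncertain. BIP3 was 72.9% identical to BIP1 and 72.8% to BIP2 in coding sequence and shared no such window with either. At 79.1% of aligned residues, its protein was still close to that of BIP1, while the HSP110-like protein matched BIP1 at 32.9%.

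In *bli* against WT all 10 chaperone genes rose, beside 17.3% of all tested genes called higher and 17.0% called lower. Their median log2 difference was 0.99, where the median over all genes was -0.01. The changes ran from 0.26 for ERDJ2A to 6.93 for BIP3. In every one of the 10 genes the 3 *bli* libraries lay above the 3 WT libraries. The share of all genes that stood apart in this way was not counted. With the cutoffs of the study (a fold change of at least 2 with an unadjusted p of at most 0.05), 5 of the 10 passed. These were BIP1, BIP2, BIP3, ERDJ3A and the HSP110-like gene. Of all 20645 tested genes, 908 passed these cutoffs as higher and 1179 as lower.

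**Figure D1:**
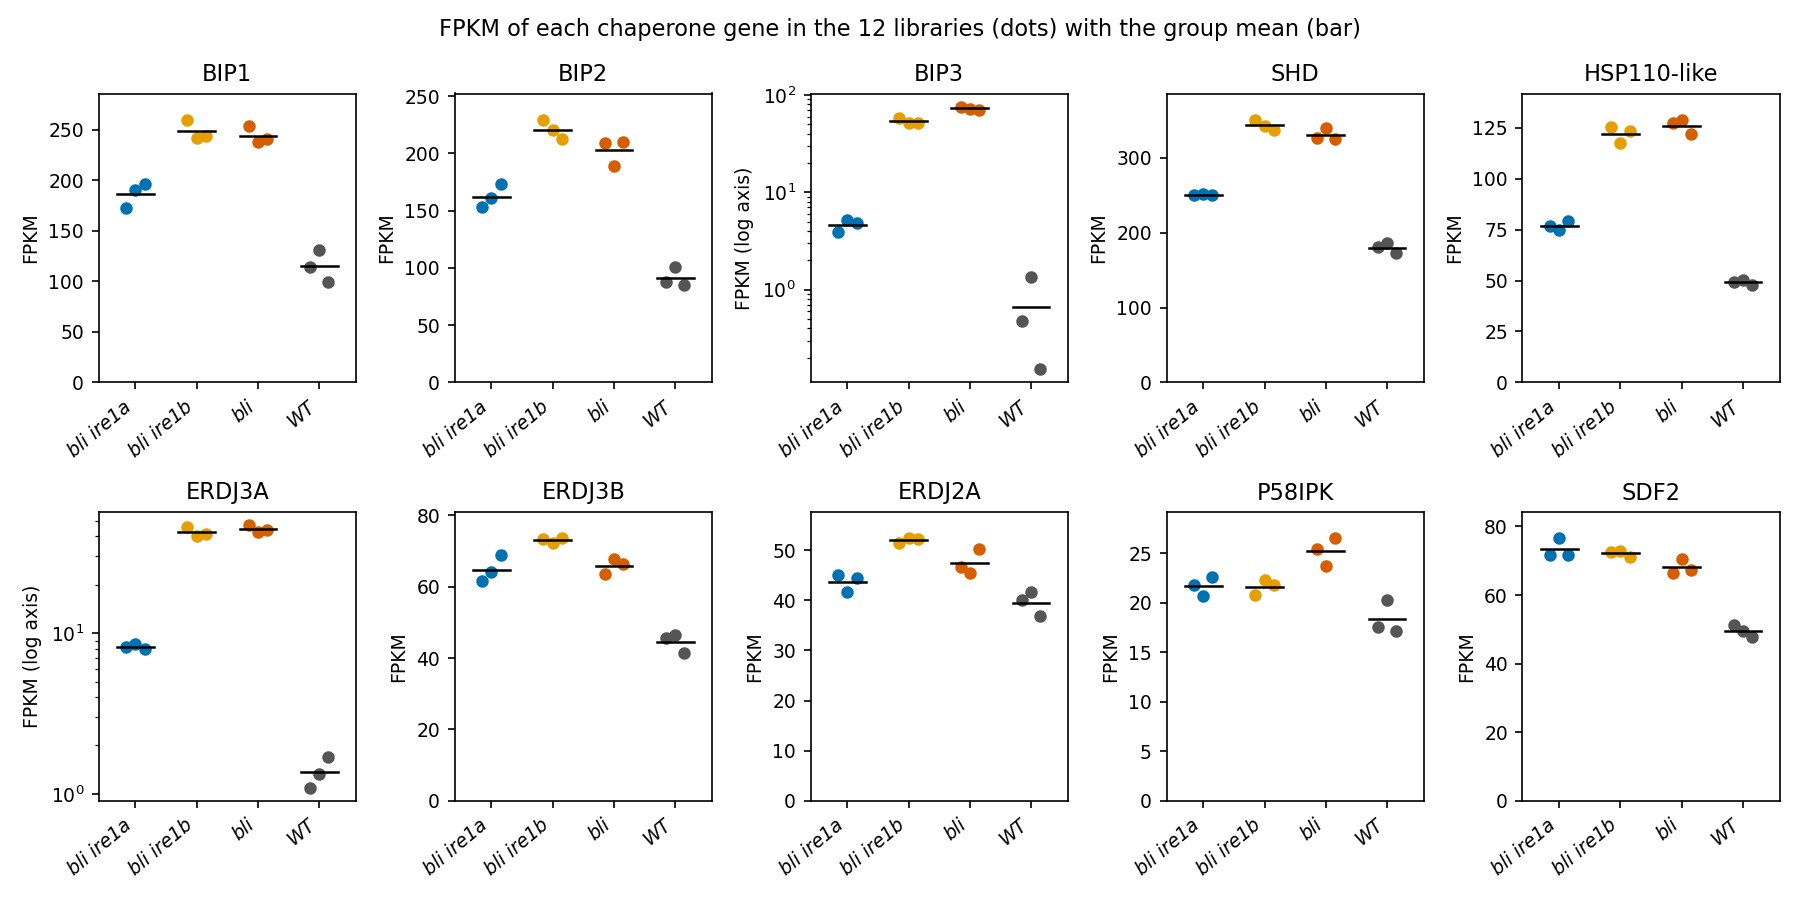
FPKM of the 10 chaperone genes in each of 12 libraries (dots, 3 per genotype) with the group mean (bar), on a log axis for BIP3 and ERDJ3A and from 0 elsewhere. The *bli* and *bli ire1b* libraries of BIP3 lie between 51.4 and 76.0 FPKM, those of *bli ire1a* between 3.96 and 5.24 FPKM and those of WT between 0.152 and 1.36 FPKM.

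BIP3 (AT1G09080, chr1:2929217-2931850, minus strand), the BiP gene known as strongly inducible by ER stress, had the widest range of the 10 genes between genotypes. It had 3.96, 5.24 and 4.81 FPKM in *bli ire1a*, 57.8, 51.4 and 51.6 FPKM in *bli ire1b*, 76.0, 72.4 and 70.1 FPKM in *bli* and 0.477, 1.36 and 0.152 FPKM in WT. No 2 of the 4 genotypes overlapped. In *bli* the mean was 109.8 times that in WT, and the log2 difference was 6.93 (SE 0.45, limma with Benjamini-Hochberg adjusted p = 1.68e-06). WT is near the pseudocount, so the log2 value depends on it and was 5.54 with 1 FPKM added and 7.25 with 0.01 FPKM added. It also rests on single WT libraries: without WT replicate 2, the highest of WT, the ratio of means was 231 and the log2 difference 7.58, and without WT replicate 3 they were 79.3 and 6.31. Among genes above 0, BIP3 stood at percentile 90.46 in *bli* and at percentile 17.0 in WT.

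The constitutive copies moved less. BIP1 (AT5G28540, chr5:10540123-10543558, minus strand) had 172, 190.3 and 197 FPKM in *bli ire1a*, 259.8, 242 and 244 FPKM in *bli ire1b*, 253, 238 and 241 FPKM in *bli* and 114, 131 and 99.7 FPKM in WT. BIP2 (AT5G42020, chr5:16807342-16810693, minus strand) had 153, 161 and 173 FPKM in *bli ire1a*, 229, 221 and 212 FPKM in *bli ire1b*, 209, 189 and 209.8 FPKM in *bli* and 88.1, 101 and 84.7 FPKM in WT. BIP1 was 2.13-fold and BIP2 2.22-fold as high in *bli* as in WT, and in both genes every mutant library lay above every WT library. The log2 differences were 1.10 (SE 0.088, limma adjusted p = 6.89e-06) for BIP1 and 1.15 (SE 0.075, limma adjusted p = 1.80e-06) for BIP2. Since the pair cannot be fully separated, their FPKM were also summed, which gave 1.12 (limma adjusted p = 3.27e-06).

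SHD (AT4G24190, chr4:12551552-12556058, minus strand), which in Arabidopsis folds the CLAVATA receptors and other secreted proteins, was the most abundant of the 10 in all 4 genotypes. It had 249.5, 251 and 250.1 FPKM in *bli ire1a*, 351, 342 and 337 FPKM in *bli ire1b*, 327, 339.9 and 325 FPKM in *bli* and 180.3, 186 and 173 FPKM in WT. The groups of *bli* and *bli ire1b* overlapped and the others stood apart. Its log2 difference in *bli* against WT was 0.88 (SE 0.044, limma adjusted p = 2.58e-07), a fold of 1.84 that stays under the cutoff of 2.

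The HSP110-like gene (AT4G16660, chr4:9376699-9381507, plus strand) belongs to the large HSP70 relatives, of which the mammalian ER form reloads BiP with ATP. It had 76.7, 75.02 and 79.2 FPKM in *bli ire1a*, 125, 117 and 123 FPKM in *bli ire1b*, 127, 129 and 122 FPKM in *bli* and 49.2, 50.4 and 47.8 FPKM in WT. All 6 libraries of *bli* and *bli ire1b* lay above 117 FPKM, all *bli ire1a* libraries between 75.02 and 79.2 FPKM and all WT libraries between 47.8 and 50.4 FPKM. In *bli* it was 2.56-fold as high as in WT (log2 difference 1.36, SE 0.048, limma adjusted p = 2.24e-08).

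Among the J-domain proteins, which recruit BiP, ERDJ3A stood apart from the other 3. ERDJ3A (AT3G08970, chr3:2737297-2740549, plus strand), a lumenal protein, had 8.18, 8.50 and 8.02 FPKM in *bli ire1a*, 45.7, 40.3 and 41.2 FPKM in *bli ire1b*, 47.0, 42.4 and 44.0 FPKM in *bli* and 1.09, 1.33 and 1.69 FPKM in WT. In *bli* it was 32.4-fold as high as in WT (log2 difference 4.94, SE 0.13, limma adjusted p = 1.08e-09). The antisense gene AT3G08960 overlaps 0.426% of its exon bases.

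ERDJ3B (AT3G62600, chr3:23150779-23153649, minus strand) is a lumenal partner of BiP that works with SDF2 in the folding of cell-surface immune receptors. It had 61.5, 64.0 and 68.8 FPKM in *bli ire1a*, 73.4, 72.3 and 73.5 FPKM in *bli ire1b*, 63.5, 67.6 and 66.4 FPKM in *bli* and 45.6, 46.5 and 41.3 FPKM in WT. All 9 mutant libraries lay above WT, and the libraries of *bli ire1a* and *bli* were interleaved. In *bli* against WT the log2 difference was 0.57 (SE 0.060, limma adjusted p = 4.44e-05).

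SDF2 (AT2G25110, chr2:10684118-10686347, plus strand), the partner of ERDJ3B, kept to a similar pattern. It had 71.7, 76.6 and 71.7 FPKM in *bli ire1a*, 72.4, 73.0 and 71.1 FPKM in *bli ire1b*, 66.4, 70.5 and 67.2 FPKM in *bli* and 51.4, 49.4 and 47.7 FPKM in WT. Every mutant library was above every WT library, and both double mutants were above *bli*. The log2 difference in *bli* against WT was 0.46 (SE 0.050, limma adjusted p = 5.53e-05).

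ERDJ2A (AT1G79940, chr1:30069519-30073440, plus strand), a membrane protein of the Sec63 type that serves protein import into the ER, changed the least of the 10 in *bli* against WT. It had 45.1, 41.6 and 44.5 FPKM in *bli ire1a*, 51.4, 52.3 and 52.2 FPKM in *bli ire1b*, 46.7, 45.4 and 50.1 FPKM in *bli* and 40.1, 41.6 and 36.8 FPKM in WT. The lowest *bli ire1a* library and the highest WT library overlapped narrowly. In *bli* the log2 difference was 0.26 (SE 0.062, limma adjusted p = 0.00688).

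P58IPK (AT5G03160, chr5:750101-752805, plus strand), a lumenal J-domain protein named after a mammalian kinase inhibitor, had means in both double mutants that lay between those of *bli* and WT. It had 21.8, 20.7 and 22.6 FPKM in *bli ire1a*, 20.8, 22.3 and 21.8 FPKM in *bli ire1b*, 25.4, 23.7 and 26.5 FPKM in *bli* and 17.5, 20.3 and 17.2 FPKM in WT. Its log2 difference in *bli* against WT was 0.46 (SE 0.077, limma adjusted p = 0.0009). The antisense gene AT5G03170 overlaps 3.17% of its exon bases, and whether strand was used in counting is not given in the sources used here.

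Part of this set was lower when IRE1A was mutated as well. In *bli ire1a* against *bli*, 6 of the 10 genes fell and none was called higher, beside 7.65% of all genes called lower and 6.62% called higher. The median over the 10 was -0.36, with 0.01 over all genes. With upper-quartile scaling the split of all genes changed to 1227 lower and 1762 higher, against 1579 lower and 1366 higher without it, and the number of chaperone genes called lower was 5. The 6 were all 3 BiP genes, SHD, ERDJ3A and the HSP110-like gene, while the 3 other J-domain genes and SDF2 did not pass. With the study's cutoffs, BIP3 and ERDJ3A passed, beside 420 of all 20645 tested genes as lower and 417 as higher.

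BIP3 fell by the widest margin, to 4.67 ± 0.652 FPKM in *bli ire1a* against 72.8 ± 2.96 FPKM in *bli* (SD, n = 3), with a log2 difference of -3.94 (SE 0.45, limma adjusted p = 0.000325). ERDJ3A averaged 8.23 ± 0.248 FPKM in *bli ire1a* and 44.5 ± 2.35 FPKM in *bli* (SD, n = 3), with a log2 difference of -2.42 (SE 0.13, limma adjusted p = 1.27e-06). For the HSP110-like gene it was -0.71 (SE 0.048, limma adjusted p = 8.72e-06). These are the genes that also had the widest margins over WT in *bli*. SHD followed at -0.40 (SE 0.044, limma adjusted p = 0.000263).

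For the constitutive BiP pair the differences were smaller and closer to the threshold. BIP1 differed by -0.39 (SE 0.088, limma adjusted p = 0.0139), and without *bli ire1a* replicate 1 its adjusted p was 0.0507. BIP2 differed by -0.32 (SE 0.075, limma adjusted p = 0.0171). The call of BIP2 was lost with upper-quartile scaling (limma adjusted p = 0.0517), with quantile normalization (0.0558), and without *bli* replicate 1 or 3 or *bli ire1a* replicate 1 or 2 (0.0518 to 0.0606). The sum of the pair differed by -0.36 (limma adjusted p = 0.0134). In each of these genes the *bli ire1a* libraries lay below all *bli* libraries.

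Intervals are given for the 4 genes that did not pass. The 95% confidence interval of the log2 difference between *bli ire1a* and *bli* was -0.16 to 0.11 for ERDJ3B and -0.00 to 0.22 for SDF2. For ERDJ2A it was -0.25 to 0.02 and for P58IPK -0.39 to -0.05. Their rises in *bli* against WT were 0.26 and 0.46, so these intervals take in small and large losses of the rise. The intervals are not adjusted for the number of genes, and that of P58IPK leaves out 0. The groups of P58IPK did not overlap, and its limma adjusted p was 0.0889. A p above the threshold does not show that these genes were equal between the genotypes.

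**Figure D2:**
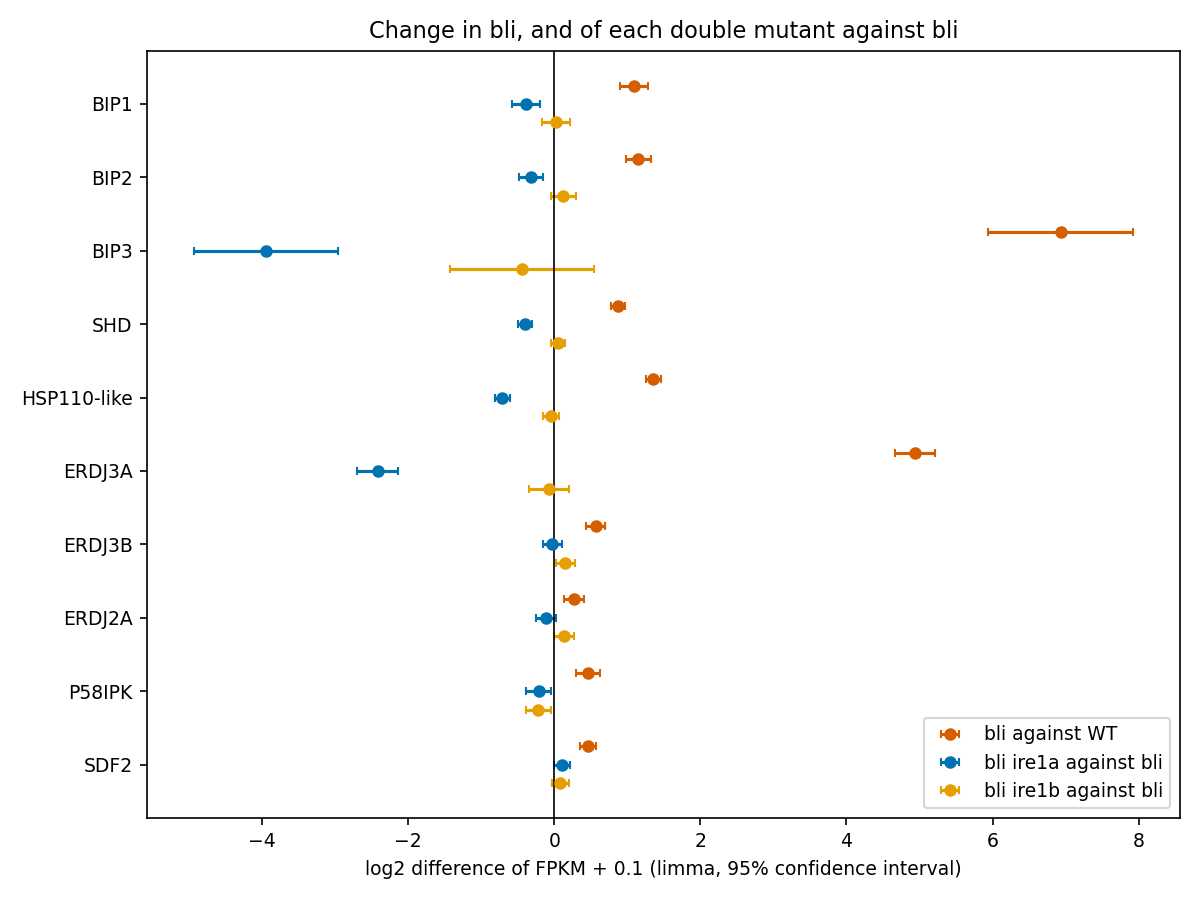
Log2 difference of FPKM + 0.1 (horizontal axis) for the 10 genes in *bli* against WT, *bli ire1a* against *bli* and *bli ire1b* against *bli*, with limma's 95% confidence intervals. BIP3 and ERDJ3A reach 6.93 and 4.94 in *bli* and fall to the left at -3.94 and -2.42 in *bli ire1a* against *bli*, and the points of *bli ire1b* against *bli* lie between -0.44 and 0.15.

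In *bli ire1b* against *bli*, limma called 0 of the 10 genes in either direction, beside 1.10% of all genes called higher and 3.25% called lower. At an unadjusted p under 0.05 there were 2, ERDJ3B at 0.15 and P58IPK at -0.22, with limma adjusted p of 0.185 and 0.141. BIP3 had 57.8, 51.4 and 51.6 FPKM in *bli ire1b*, against 76.0, 72.4 and 70.1 FPKM in *bli*. These groups stood apart, yet the log2 difference of -0.44 (95% confidence interval -1.43 to 0.54) had a limma adjusted p of 0.622. The spread in this fit is shared with the WT libraries, where BIP3 had a coefficient of variation of 94.3%. In a fit of only the 2 genotypes it was called, with an adjusted p of 0.0277. For ERDJ3A the interval was -0.35 to 0.21 and for SHD -0.04 to 0.15.

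The double mutants were then compared with each other, which tests whether loss of IRE1A and loss of IRE1B in *bli* differ in effect. In *bli ire1a* against *bli ire1b*, 7 genes were lower and none was called higher, beside 5.30% of all genes lower and 7.45% higher. These were the same 6 genes and ERDJ2A. BIP3 differed by -3.50 (SE 0.45, limma adjusted p = 0.000858) and ERDJ3A by -2.35 (SE 0.13, limma adjusted p = 1.74e-06). ERDJ2A differed by -0.25 (limma adjusted p = 0.0235), a call lost without *bli ire1a* replicate 2 or any 1 of the *bli ire1b* libraries (adjusted p of 0.0640 to 0.0915). The 95% interval of the difference was -0.17 to 0.17 for P58IPK and -0.09 to 0.13 for SDF2. For ERDJ3B the log2 difference was -0.18 (limma adjusted p = 0.0815).

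Most of the 10 genes were higher in both double mutants than in WT. In *bli ire1a* against WT, 8 of the 10 genes were called higher and none lower, beside 7.17% of all genes higher and 7.87% lower. ERDJ2A (0.15, limma adjusted p = 0.138) and P58IPK (0.24, limma adjusted p = 0.0559) did not pass. P58IPK was called without WT replicate 2 (adjusted p of 0.0202). BIP3 was 7.04-fold and ERDJ3A 6.0-fold as high as in WT. The log2 difference of BIP3 was 2.99 (limma adjusted p = 0.0019), and 1.83 with 1 FPKM added. Without WT replicate 2 the ratio of means was 14.8 and the log2 difference 3.63, and without WT replicate 3 they were 5.08 and 2.37. In *bli ire1b* against WT all 10 were called higher, beside 19.1% of all genes higher and 20.1% lower. Among these, P58IPK was nearest to the threshold at 0.24 (limma adjusted p = 0.0278), and its call was lost in a fit of the 2 genotypes alone (0.0624) and without WT replicate 1 or 3 or *bli ire1b* replicate 2 or 3 (0.0691 to 0.0998). The 3 comparisons with WT share the same WT libraries, and the 2 with *bli* share its libraries. With the study's cutoffs, 2 genes passed in *bli ire1a* and 5 in *bli ire1b*. Of all 20645 tested genes, 370 passed as higher and 451 as lower in *bli ire1a*. For *bli ire1b* these counts were 686 and 1576.

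How much of the *bli* change was left in each double mutant was expressed per gene as the log2 difference from WT in percent of that in *bli* (mean ± SD over 3 libraries, with the means of *bli* and WT held fixed). In *bli ire1a* the share was 43.1% ± 2.92 for BIP3, 47.6% ± 2.87 for the HSP110-like gene, 51.0% ± 0.866 for ERDJ3A and 54.5% ± 0.631 for SHD. It was 64.3% ± 9.12 for BIP1 and 72.3% ± 7.90 for BIP2. For the pair ERDJ3B and SDF2 it was 95.6% ± 14.3 and 123% ± 12.0. The 4 genes with the widest margins in *bli* besides the BIP1 and BIP2 pair were thus between 43.1% and 54.5% on the log2 scale. For BIP3 the share depends on the pseudocount and on single WT libraries. Its log2 differences from WT in *bli ire1a* and *bli* were 1.83 and 5.54 with 1 FPKM added. Without WT replicate 3 they were 2.37 and 6.31, and without WT replicate 2 they were 3.63 and 7.58. In FPKM, BIP3 averaged 4.67 in *bli ire1a*, 72.8 in *bli* and 0.664 in WT, and ERDJ3A 8.23, 44.5 and 1.37. Less of the rise was left on that scale. In *bli ire1b*, 9 of the 10 genes lay between 93.6% ± 1.38 (BIP3) and 151% ± 5.28 (ERDJ2A), and P58IPK was at 52.8% ± 11.2. In *bli ire1a*, P58IPK was at 53.1% ± 13.6 and ERDJ2A at 55.9% ± 23.6, both with wide spreads.

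**Figure D3:**
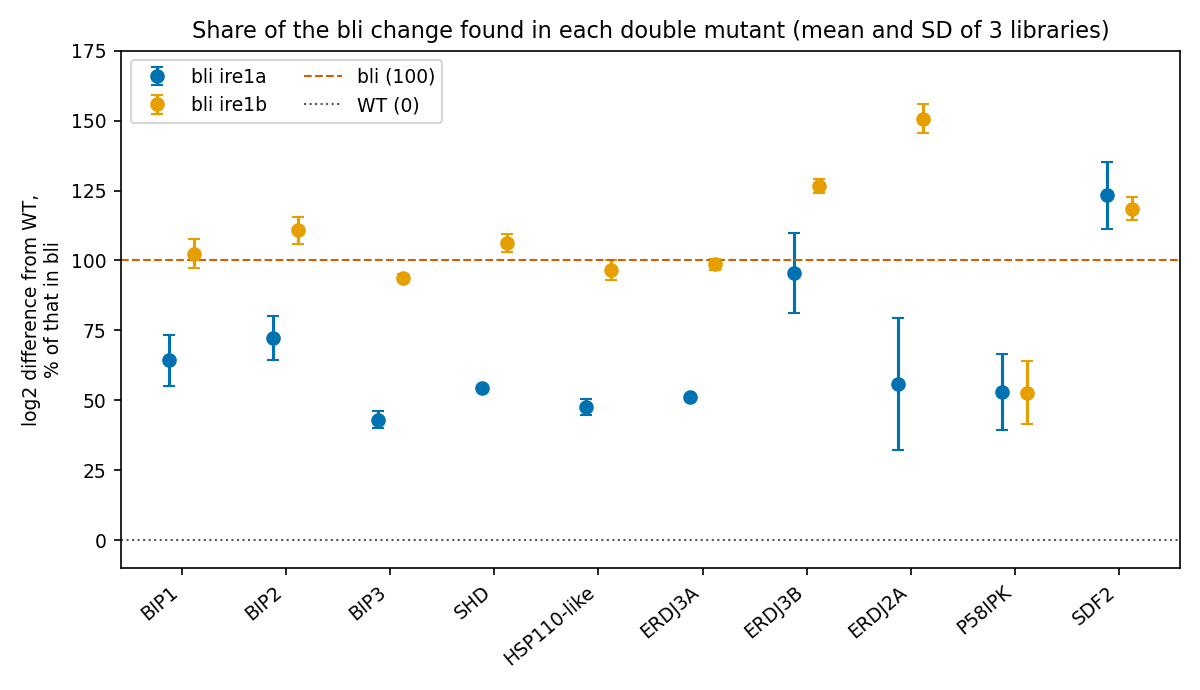
Log2 difference from WT in each double mutant as a percentage of that in *bli* (points, mean of 3 libraries; bars, SD), with *bli* at 100 (dashed) and WT at 0 (dotted). In *bli ire1a*, BIP3, SHD, the HSP110-like gene and ERDJ3A lie between 43.1% and 54.5%, and in *bli ire1b* all genes but P58IPK lie at or above 93.6%.

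The make-up of the BiP pool differed between genotypes. The summed FPKM of the 3 BiP genes was 353 ± 23.0 in *bli ire1a*, 523 ± 21.1 in *bli ire1b*, 519 ± 19.2 in *bli* and 207 ± 24.7 in WT (SD, n = 3). BIP3 made up 1.32% ± 0.136 in *bli ire1a*, 10.2% ± 0.289 in *bli ire1b*, 14.0% ± 0.529 in *bli* and 0.300% ± 0.256 in WT. The genotypes did not overlap in this share, and BIP1 remained the largest contributor in all 12 libraries. BIP1 over BIP2 was 1.15 ± 0.0304 in *bli ire1a*, 1.13 ± 0.0264 in *bli ire1b*, 1.21 ± 0.0538 in *bli* and 1.25 ± 0.0672 in WT. The ratio of this pair rests on fragments that the copies may share.

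**Figure D4:**
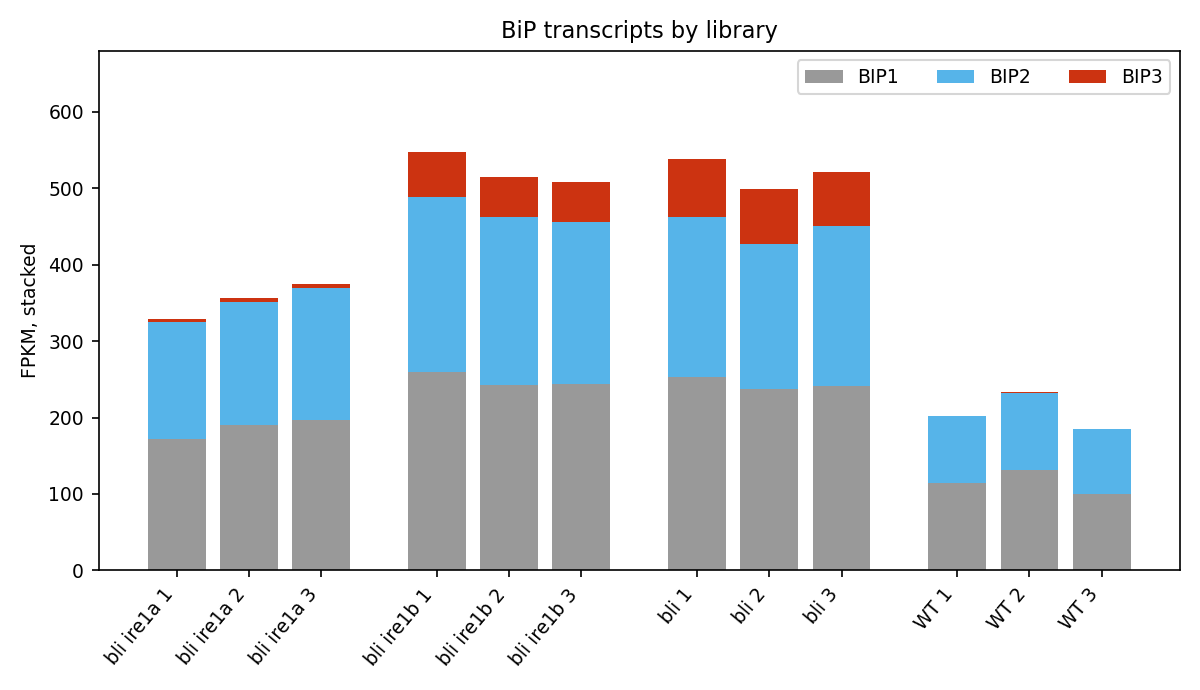
Stacked FPKM of BIP1, BIP2 and BIP3 (vertical axis) in each of the 12 libraries, grouped by genotype. The sum averages 353 FPKM in *bli ire1a*, 523 FPKM in *bli ire1b*, 519 FPKM in *bli* and 207 FPKM in WT, and the BIP3 part is thin in *bli ire1a* (1.32% of the sum) and in WT (0.300%).

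The sum of the J-domain genes shifted in a like way. Their summed FPKM was 138 ± 4.77 in *bli ire1a*, 189 ± 2.09 in *bli ire1b*, 183 ± 3.99 in *bli* and 104 ± 6.38 in WT (SD, n = 3). ERDJ3A made up 5.96% ± 0.368 in *bli ire1a*, 22.4% ± 1.28 in *bli ire1b*, 24.3% ± 1.24 in *bli* and 1.34% ± 0.366 in WT. Between *bli* and *bli ire1a* its mean went from 44.5 to 8.23 FPKM, most of the change in the sum. The other J-domain genes were not called in that comparison. BiP over the J-domain sum was 2.55 ± 0.127 in *bli ire1a*, 2.76 ± 0.0858 in *bli ire1b*, 2.84 ± 0.0915 in *bli* and 1.99 ± 0.120 in WT, higher in each mutant library than in each WT library. SHD over BiP was 0.710 ± 0.0458 in *bli ire1a*, 0.657 ± 0.0137 in *bli ire1b*, 0.637 ± 0.0386 in *bli* and 0.875 ± 0.0701 in WT, lower in each mutant library than in each WT library.

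Single partners differed in their ratio to BiP. BiP over P58IPK was 16.3 ± 1.10 in *bli ire1a*, 24.2 ± 1.81 in *bli ire1b*, 20.6 ± 0.866 in *bli* and 11.3 ± 0.446 in WT. BiP over the HSP110-like gene was 4.59 ± 0.262 in *bli ire1a*, 4.28 ± 0.150 in *bli ire1b*, 4.12 ± 0.217 in *bli* and 4.20 ± 0.390 in WT. For P58IPK every mutant library had a higher ratio than every WT library. For the HSP110-like gene the WT libraries overlapped with each mutant, and *bli ire1a* lay above *bli*. ERDJ3B over SDF2 lay between 0.836 and 1.03 in all 12 libraries. These ratios are descriptions without a test.

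SHD, BIP1 and BIP2 held the first to the third rank by mean FPKM in every genotype, although the libraries of BIP1 and BIP2 overlapped in *bli ire1a* and in WT. BIP3 was last of the 10 in *bli ire1a* and WT, the fifth in *bli* and the seventh in *bli ire1b*. ERDJ3A held the ninth rank in all 4 genotypes. In *bli* its libraries overlapped with those of ERDJ2A, as did those of BIP3 with SDF2, and those of SDF2 with ERDJ3B. In WT the overlaps were between SDF2 and the HSP110-like gene, between ERDJ3B and ERDJ2A, and between ERDJ3A and BIP3.

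Other genes of ER protein folding moved in the same directions. The list, chosen with earlier results of these data known, holds 14 genes for the calnexin and calreticulin cycle, disulfide formation and the second Sec63-type protein. In *bli* against WT 13 of 14 rose (median log2 difference 0.82), beside 17.3% of all genes. In *bli ire1a* against *bli* 10 of 14 fell (median -0.36), beside 7.65% of all genes. In *bli ire1b* against *bli* limma called 0 of them (median -0.01), beside 1.10% of all genes higher and 3.25% lower. The widest margins in *bli* against WT were those of PDIL1-2, a disulfide isomerase (3.01), ERO1, which oxidizes such isomerases (2.42), and PDIL2-2 (2.05). In *bli ire1a* against *bli* these 3 differed by -2.01, -1.75 and -0.75. Within 300 bases upstream, 6 of the 14 held a UPR motif, beside 3.79% of these windows over all genes.

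Chaperones of the same families outside the ER were counted in the same way. Of 9 HSP70 genes of the cytosol, mitochondria and chloroplast, 2 rose in *bli* against WT (median 0.12, beside 17.3% of all genes called higher), the mitochondrial mtHSC70-1 by 0.32 and the chloroplast cpHSC70-2 by 0.22. Of 6 HSP90 genes outside the ER, 2 rose (median 0.23, beside the same 17.3%), HSP90.5 of the chloroplast by 0.44 and HSP90.6 of the mitochondria by 0.26. None of these 15 genes was called in *bli ire1a* against *bli*, beside 7.65% of all genes lower and 6.62% higher. None held a UPR motif in the upstream window, beside 3.79% of these windows over all genes. In lists so short, counts of 2 and of 0 are near these shares. The difference between the lists was not tested.

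All 4 UPR transcription factors on the list rose in *bli* against WT, beside 17.3% of all genes called higher. NAC103, a target of bZIP60, averaged 43.0 FPKM in *bli* and 0.688 FPKM in WT (log2 difference 5.80), and bZIP60 averaged 193 FPKM in *bli* and 50.5 FPKM in WT (1.98). In *bli ire1a* against *bli* both fell, by 4.44 and 1.29 on the log2 scale. The gene-level FPKM does not separate spliced from unspliced bZIP60 mRNA. bZIP17 rose by 0.37 in *bli* against WT and was not called in *bli ire1a* against *bli*.

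Outside the 10 chaperone genes, those whose log2 profile over the 12 libraries was most like that of a chaperone gene were ranked by Pearson's r, which is a description because the libraries fall into 4 genotypes. For BIP3 these were GRP5 (0.989), AT1G14010 (0.988) and AT2G47470 (0.987), the disulfide isomerase also listed as PDIL2-1. For ERDJ3A they were AT4G14420 (0.996), DTX1 (0.994) and AT5G26270 (0.993). PDIL2-2 came first for both BIP2 (0.990) and SHD (0.992). Chaperone genes came slightly closer to both, BIP1 to BIP2 (0.991) and the HSP110-like gene to SHD (0.994). Among the chaperone genes themselves, r with BIP3 was highest for the HSP110-like gene (0.986) and lowest for SDF2 (0.745).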

How the data were processed

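The authors isolated RNA from whole seedlings, made TruSeq libraries, trimmed the reads, aligned them to the TAIR10 genome with TopHat and tested with Cuffdiff, and deposited 1 table that holds the FPKM of each gene in all 12 libraries. This follows the study's methods. The submitters' processing notes list Bowtie and a mouse genome build instead, a conflict that could not be settled here. The program that wrote the FPKM and its use of strand are not given in the sources used here. The labels give an age of 12 days where the study's methods give another, and read totals were not used here. FPKM are not counts and Cuffdiff needs alignments, so values were fitted as log2(FPKM + 0.1) with limma 3.58.1 (R 4.3.3), eBayes with a mean-variance trend, over 20645 genes with a mean of at least 0.5 FPKM in 12 libraries of 4 genotypes (8 residual degrees of freedom). All p-values were adjusted over these genes by Benjamini-Hochberg. A log2 difference on this scale understates the change of low genes. The p-values set each difference against the spread between numbered libraries within genotypes (3 per genotype). This spread is shared by the 4 genotypes and drawn by eBayes towards the trend over all genes. The fit was tested on simulated data.

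The 10 chaperone genes were taken by locus and all are named. Other genes are named by list, at most 3 per list and direction by size of the log2 difference in *bli* against WT, with the mutated genes, and the 3 genes outside the 10 with the highest Pearson's r to BIP3, ERDJ3A, BIP2 and SHD. The members and lists were chosen with earlier results of these data known. Upstream sequence, gene positions and identities were read from the RefSeq TAIR10.1 assembly and annotation with biopython 1.88 and share the names of the authors' build. The alternatives were other pseudocounts (1 and 0.01), other filters on low values, a fit of only the 2 groups compared, a replicate block, upper-quartile and quantile normalization, no trend, the study's cutoffs, BIP1 and BIP2 summed, and leaving out each of 12 libraries. In all, 0 columns of the table were left unused.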

Additional observations from a re-analysis of the deposited data

Results flagged for a closer look

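The following results were marked because the effects of losing IRE1A and of losing IRE1B in *bli* differed, by a direct limma test of *bli ire1a* against *bli ire1b*, with p-values adjusted after Benjamini-Hochberg to a limit of 0.05. The log2 difference was -3.50 for BIP3, -2.35 for ERDJ3A and -0.67 for the HSP110-like gene. It was -0.45 for SHD, -0.44 for BIP2 and -0.42 for BIP1. For ERDJ2A, which serves protein import into the ER, it was -0.25, and this call was lost when 1 of 4 libraries was left out. In all 7 genes the 3 *bli ire1a* libraries lay below the 3 *bli ire1b* libraries. As the genes were picked by a test of these same libraries, this adds no support. The groups also stood apart in ERDJ3B, which was not called.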

How the results depend on the processing

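The log2 differences of the 10 genes in 6 comparisons were recomputed under 23 alternatives, which gave 1368 values. Of these, 1316 kept their direction and their side of the threshold, 41 lost a call, 2 gained one and 9 changed sign, all of the last in differences that were not called. With the study's cutoffs the number of genes higher against WT was 5 in *bli ire1b*, 2 in *bli ire1a* and 5 in *bli*, and the number lower was 2 in *bli ire1a* against *bli* and 2 in *bli ire1a* against *bli ire1b*, since a fold change of 2 is asked for. A fit of only the 2 groups compared gave 1 gene lower in *bli ire1b* against *bli* (BIP3). The sign changed for ERDJ3B in *bli ire1a* against *bli* with upper-quartile scaling (0.0214) and quantile normalization (0.0311), and leaving out single libraries gave -0.0688 to 0.0113. It changed for P58IPK in *bli ire1a* against *bli ire1b* with quantile normalization (-0.00636), with -0.0277 to 0.0346 over single libraries left out. With single libraries left out, SDF2 in the same comparison ran over -0.00965 to 0.0379, and BIP1 in *bli ire1b* against *bli* over -0.00577 to 0.0536. The cause was not tested. For the share of the *bli* change left in the double mutants, 287 of 320 values moved by less than 1 SD and 0 changed sign. Over all genes the study's cutoffs called 111 to 908 higher and 218 to 1576 lower in the 6 comparisons, against 227 to 3952 higher and 670 to 4155 lower in the fit reported. Only the 2 groups compared gave 746 higher and 993 lower in *bli ire1a* against WT, 804 higher in *bli ire1a* against *bli* and 130 higher in *bli ire1b* against *bli*, where 145 were higher without the mean-variance trend. Without *bli ire1b* replicate 1, *bli ire1b* against *bli* gave 51 higher and 218 lower, and *bli ire1a* against *bli ire1b* gave 839 higher and 559 lower. Without *bli* replicate 2, *bli ire1a* against *bli* gave 873 higher and 876 lower, and without WT replicate 1, *bli ire1a* against WT gave 924 higher and 861 lower.

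A fit with the replicate number as a replicate block called the same numbers of genes in every comparison: 10, 8 and 10 higher against WT in *bli*, *bli ire1a* and *bli ire1b*, 6 lower in *bli ire1a* against *bli*, 0 in *bli ire1b* against *bli* and 7 lower in *bli ire1a* against *bli ire1b*. Deviations of same-numbered libraries correlated at -0.108 to 0.0881 (median 0.0523), and those of differently numbered libraries at -0.131 to 0.133 (median -0.0240). Of the 12 libraries, 6 correlated best with their own number. The higher median of same-numbered libraries means that a weak pairing cannot be settled here. The fit reported does not pair the libraries. Levels near 0, as those of BIP3 in WT, limit what the FPKM can resolve, and the number of fragments behind each value was not estimated here.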

Other observations

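Of 5 seed markers, the summed FPKM was 43.2 in WT replicate 1 and at most 7.13 in the other 11 libraries. Without this WT library BIP3 differed by 6.91 in *bli* against WT on the log2 scale, and over all single libraries left out by 6.31 to 7.58, with 6.93 over all libraries.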
